A study of Mus musculus with 32 samples.

Results

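The genes described here encode the nuclear-encoded subunits of respiratory complexes I to IV and a family of complex I assembly factors. They were chosen by symbol alone: every gene of the array whose symbol begins with Nduf, Uqcr or Cox4 to Cox8, with Sdha, Sdhb, Sdhc, Sdhd and Cyc1. The rule found 74 of the 18193 genes measured: 36 complex I subunits, 8 complex I assembly factors (symbols beginning with Ndufaf), 4 subunits of complex II, 9 of complex III and 17 of complex IV. The classes follow the symbols, so Ndufa4, now regarded as a subunit of complex IV, and Ndufa4l2 stand with complex I, and Cox7a2l, a factor that joins complexes III and IV, stands with complex IV.

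RNA came from the striatum, the forebrain region that degenerates in Huntington's disease, of male mice on a CBA X C57Bl/6 background at 12 weeks of age, and was measured on 32 arrays. R6/2 mice express, from a transgene under the human promoter, the start of the huntingtin protein with an expanded CAG repeat, so they model the fragment and not the full-length protein. HSP990 (NVP-HSP990) is an inhibitor of the chaperone HSP90. The groups were wild type on vehicle (7 arrays), wild type on HSP990 (10 arrays), R6/2 on vehicle (7 arrays) and R6/2 on HSP990 (8 arrays). The compound, or saline with its formulation solution as vehicle, was given by oral gavage, and the series' design text gives 12 mg/kg and 4 h. All groups share sex, age and background. The labels do not name the animals. The p-values therefore rest on the spread between samples, some of which may be technical.

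The respiratory chain of the inner mitochondrial membrane passes electrons from NADH, through complex I, and from succinate, through complex II, to ubiquinone, then through complex III and cytochrome c to complex IV, where oxygen is reduced. Complexes I, III and IV pump protons, and ATP synthase uses the gradient. Complex I has a matrix arm with the NADH and iron-sulfur sites, a membrane arm that pumps, and many accessory subunits, and its assembly needs factors that do not stay in the finished complex. Some core subunits are made from mitochondrial DNA and are no part of this set. In Huntington's disease the striatum has long been studied for defects of complexes II and III, and 3-nitropropionic acid, which blocks complex II, damages the striatum.

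Nuclear respiratory genes are known as targets of the transcription factors NRF1, GABPA (NRF-2), YY1 and ESRRA, so their promoters were searched for the letters of each motif. RefSeq windows (GRCm38.p6) of 300 bases, from 250 before to 50 after the transcription start, were at hand for 59 of the 74 genes. A gene counted if any of its windows matched, and 2 of the 59 had over 1 window. The NRF1 motif, read as GCGCA, any base and GCGC, was present on either strand in 11 of the 59 genes (18.6%). It was present in 8.63% of the 14367 measured genes with a window and in 5.19% of all 27025 genes with a window. The GABPA motif, CCGGAAG, was present in 13 (22%), against 15% and 9.93%. The YY1 motif, AAGATGGC, was present in 7 (11.9%), against 4.09% and 3.19%. The ESRRA motif, AAGGTCA, was present in 4 (6.78%), against 4.61% and 5.38%. No member window held overlapping matches of different motifs. A match says only that the letters are there, not that a factor binds.

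The 130 bases before the start are printed for 6 genes on which the results turn or that show the motifs plainly, so that the promoters can be read beside the values; they were picked after the values were seen. All lie on the minus strand: Sdha at chr13:74350241-74350370, Ndufa8 at chr2:36049339-36049468, Cox6a1 at chr5:115348959-115349088, Cox6b1 at chr7:30626115-30626244, Uqcrh at chr4:116075071-116075200 and Ndufaf1 at chr2:119662835-119662964. Each reads 5' to 3' along the gene, and capitals mark NRF1 or GABPA motif letters on either strand. Sdha has 3 NRF1 matches, Ndufa8 has 1, Cox6a1 has 1 of each motif, and Cox6b1, Uqcrh and Ndufaf1 each have 1 GABPA match.
Sdha: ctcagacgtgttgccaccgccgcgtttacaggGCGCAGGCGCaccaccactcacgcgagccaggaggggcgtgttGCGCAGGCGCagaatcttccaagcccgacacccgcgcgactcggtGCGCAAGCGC
Ndufa8: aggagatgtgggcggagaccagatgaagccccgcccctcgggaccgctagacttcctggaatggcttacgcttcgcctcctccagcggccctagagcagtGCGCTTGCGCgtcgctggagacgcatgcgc
Cox6a1: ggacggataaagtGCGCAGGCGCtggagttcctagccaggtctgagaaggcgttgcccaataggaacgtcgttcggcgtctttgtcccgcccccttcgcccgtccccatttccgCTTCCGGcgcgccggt
Cox6b1: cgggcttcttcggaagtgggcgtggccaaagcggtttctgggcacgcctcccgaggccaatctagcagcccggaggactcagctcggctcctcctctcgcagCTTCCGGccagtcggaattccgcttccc
Uqcrh: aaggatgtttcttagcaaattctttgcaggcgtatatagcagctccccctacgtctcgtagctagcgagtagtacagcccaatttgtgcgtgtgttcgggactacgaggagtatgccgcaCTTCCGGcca
Ndufaf1: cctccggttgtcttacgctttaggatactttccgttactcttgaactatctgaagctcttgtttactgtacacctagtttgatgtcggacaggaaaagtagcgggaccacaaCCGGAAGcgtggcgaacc

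Values are log2 intensities, normalized by the authors, and a log2 difference of 1 is a doubling. Array medians ran from 5.73 to 5.78. Of the 74 genes, 52 had a mean over 10 and 5 (Ndufb4, Cox7b2, Cox4i2, Cox7a1 and Cox8b) had a mean under the median of all probe sets. Levels of different genes come from different probes and are not compared. The 3' minus 5' signal of the Gapdh and Actb controls, which rises as RNA degrades, had a median of 1.43 in wild type on vehicle, 1.04 in wild type on HSP990, 1.07 in R6/2 on vehicle and 1.46 in R6/2 on HSP990. The highest value was 4.56, in replicate 5 of R6/2 on HSP990. The medium spiny neuron list (18 markers of the main striatal cell type) averaged 11.13 to 11.51 in the wild-type vehicle arrays. Those of choroid plexus and ependyma, tissue next to the striatum, averaged 5.56 to 8.12 over 10 genes there and 5.23 to 6.66 in R6/2 on vehicle.

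Each gene was set to 0 at the mean of its 4 group means, and the median over the 74 genes then gave 1 value per array. In wild type on vehicle this median ran from -0.11 to 0.05 with a middle value of 0.02, and replicate 4 gave the low end. In wild type on HSP990 it ran from -0.20 to -0.08 with a middle value of -0.11. In R6/2 it ran from -0.06 to 0.18 on vehicle (middle value 0.07) and from -0.00 to 0.15 on HSP990 (middle value 0.05). The wild-type HSP990 arrays were thus the low group, and no array of that group reached the range of R6/2 on HSP990. The vehicle groups of the genotypes overlapped.

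**Figure D1:**
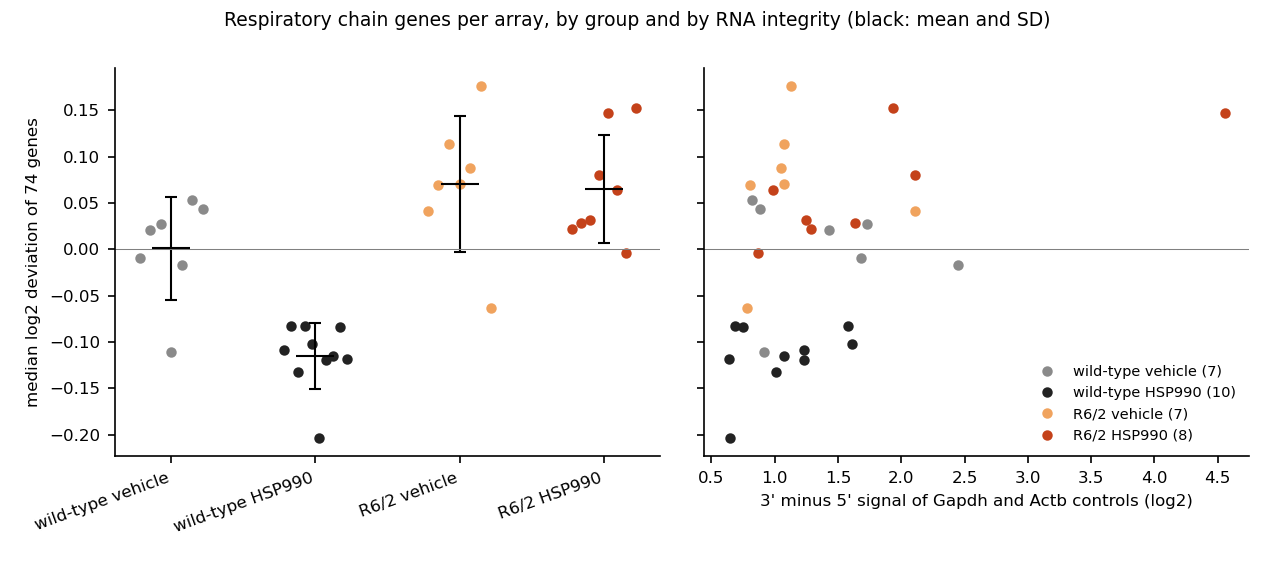
Median log2 deviation of the 74 genes from their own means, 1 point per array, by group (left, with mean and SD in black) and against the 3' minus 5' log2 signal of the Gapdh and Actb controls (right). The wild-type HSP990 arrays lie between -0.20 and -0.08, and the array with the strongest 3' bias, at 4.56, belongs to R6/2 on HSP990.

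The vehicle groups ask how R6/2 striatum differs from wild type without the drug. Of the 74 genes, 16 were higher and 2 lower in R6/2 (limma over all genes, adjusted p under 0.05), while 11.9% of all genes were called higher and 9.6% lower (21.5% in either direction). Without adjustment, 18 members were higher and 3 lower at a p under 0.05, against 17.7% and 15% of all genes. The higher genes stood in complex I (7 of 36), its assembly factors (5 of 8), complex II (Sdha) and complex III (3 of 9). No complex IV gene was called higher, and the lower genes were Cox6a2 and Sdhc. The median difference of the 74 genes was 0.06, beside -0.01 for all genes and 0.05 for the genes with a mean over 10. Of those brighter genes 21.2% were called higher and 17.5% lower, and of the 52 members among them 21.2% and 0%.

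Among complex I subunits, Ndufb6, an accessory subunit of the membrane arm, ran from 10.82 to 11.27 (median 10.98) in wild type and from 11.12 to 11.38 (median 11.29) in R6/2. All 7 R6/2 arrays lay above the wild-type mean, but the ranges overlapped. The difference was 0.25 ± 0.08 (SE, n = 7 and 7, adjusted p = 0.0174 by limma). Ndufa9, which sits near the ubiquinone site, ran from 10.84 to 11.02 (median 10.90) in wild type and from 10.82 to 11.34 (median 11.19) in R6/2, with a difference of 0.22 ± 0.07 (limma adjusted p = 0.0129). Its R6/2 arrays spread more widely, and 6 of 7 were above the wild-type mean. Ndufab1, the mitochondrial acyl carrier protein, had the largest difference of the class, 0.34 ± 0.11 (limma adjusted p = 0.019). Ndufa8, Ndufb11, Ndufb3 and Ndufc2, also accessory subunits, rose by 0.17 to 0.19. Of 11 alternative settings, the Ndufb3 call was lost under 4, including both that deal with 3' bias, the Ndufb11 and Ndufc2 calls under 3 each and the Ndufa8 call under 2. The probe sets of Ndufc2 did not all go the same way. None of the core subunits that carry the flavin or iron-sulfur sites and were measured (Ndufv1, Ndufv2, Ndufs1, Ndufs7, Ndufs8) passed the test: their differences ran from -0.07 for Ndufs7 to 0.15 for Ndufv2.

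The assembly factors of complex I held the highest share of calls. Ndufaf1, a member of the complex that builds the membrane arm, ran from 8.48 to 8.70 (median 8.60) in wild type and from 8.70 to 9.16 (median 8.91) in R6/2. These ranges did not overlap, and Ndufaf1 was the only member whose R6/2 vehicle arrays were all above all wild-type vehicle arrays. The difference was 0.32 ± 0.07, or 1.25-fold (limma adjusted p = 0.00132). Ndufaf6, another assembly factor, ran from 7.31 to 7.49 (median 7.38) in wild type and from 7.31 to 7.86 (median 7.73) in R6/2. It was high in most R6/2 arrays, with an overlap at the low end, and differed by 0.30 ± 0.08 (limma adjusted p = 0.0061). Ndufaf7, a methyltransferase that acts on a core subunit, and Ndufaf2, a paralogue of subunit Ndufa12, rose by 0.23 ± 0.07 and 0.20 ± 0.06. Ndufaf3, which works with Ndufaf4, rose by 0.18 ± 0.07 (limma adjusted p = 0.0476), but this call was lost under 6 of the 11 settings, including quantile normalization, median centring and both 3' bias settings, and in 22 of the 32 fits that left out 1 array. Ndufaf4, Ndufaf5 and Ndufaf8 were not called, with differences of 0.06, 0.14 and -0.17.

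In complex II, 1 gene was called higher and 1 lower. Sdha, its catalytic flavoprotein, ran from 11.43 to 11.77 (median 11.62) in wild type and from 11.55 to 12.17 (median 12.00) in R6/2. All but 1 of the 7 R6/2 arrays were above the wild-type mean. The difference was 0.29 ± 0.07, or 1.23-fold (limma adjusted p = 0.00325). Its second bright probe set read 0.27 ± 0.12 and a dim one -0.09 ± 0.11, and the call was lost with the mean of the probe sets. Sdhc, a membrane anchor, ran from 9.72 to 10.27 (median 9.99) in wild type and from 9.18 to 9.99 (median 9.75) in R6/2, with a difference of -0.33 ± 0.12 (limma adjusted p = 0.0477). R6/2 was the low group here, with overlapping ranges, and the second Sdhc probe set read -0.11 ± 0.08. The Sdhc call was lost with quantile normalization, with the mean of the probe sets and with only the vehicle groups in the fit, and in 23 of the 32 fits that left out 1 array. Sdhb, the iron-sulfur subunit, and Sdhd, the other anchor, were not called (0.08 ± 0.06 and 0.22 ± 0.13).

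In complex III, Uqcrh, the hinge protein that helps cytochrome c1 and cytochrome c interact, ran from 11.86 to 12.17 (median 12.09) in wild type and from 12.09 to 12.43 (median 12.27) in R6/2. Every R6/2 array was above the wild-type mean, and the difference was 0.25 ± 0.06 (limma adjusted p = 0.0016). Uqcrc2, a core subunit, rose by 0.18 ± 0.05, from a wild-type range of 11.35 to 11.55 to one of 11.51 to 11.72. Cyc1, cytochrome c1, rose by 0.18 ± 0.06, from 10.76 to 10.91 in wild type to 10.80 to 11.14 in R6/2. Both pairs of ranges overlapped slightly or at their lower end.

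In complex IV, Cox6a2, the heart and skeletal muscle isoform of subunit 6a, ran from 7.35 to 8.08 (median 7.63) in wild type and from 6.87 to 7.07 (median 7.00) in R6/2. No R6/2 array reached the lowest wild-type array. The difference, -0.65 ± 0.11 (1.57-fold, limma adjusted p = 2.76e-05), was the largest of any member in this comparison, and a second, dimmer probe set read -0.77 ± 0.18. Its widespread partner isoform Cox6a1 was not called (0.09 ± 0.05). The other complex IV members not called ran from -0.41 for the dim Cox8b to 0.13 for Cox8a.

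Counts in this comparison depended on single arrays: 11 members were called without replicate 2, 3 or 6 of R6/2 on vehicle, and 6 when only the vehicle arrays entered the fit. Cox6a2, Ndufaf1, Ndufaf6, Ndufb6 and Uqcrh were called under every setting tried.

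The HSP990 groups ask the same of the genotypes under the drug, with other arrays. Here 37 of the 74 genes were higher in R6/2 and 1, Cox6a2, was lower, while 22.6% of all genes were called higher and 11% lower (33.6% in either direction). Without adjustment, 42 members were higher and 1 lower at a p under 0.05, against 27.1% and 13.9% of all genes. By class, 19 of 36 complex I subunits, 4 of 8 assembly factors, 1 of 4 complex II genes (Sdha), 6 of 9 complex III genes and 7 of 17 complex IV genes were higher. The median difference was 0.17, beside 0.04 for all genes and 0.06 for genes with a mean over 10. Of the 52 bright members 57.7% were called higher and 0% lower, against 29.1% and 22.3% of all bright genes. For 13 members every R6/2 array on HSP990 was above every wild-type array on HSP990: Ndufa8, Ndufa13, Ndufaf1, Ndufb6, Ndufb8, Ndufb11, Ndufc2, Ndufv1, Sdha, Cyc1, Uqcrc2, Uqcrh and Cox6b1. Groups without overlap were counted for the members only, here and in the other comparisons, so no share of all genes stands beside these counts.

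By adjusted p, Sdha stood first among the members in this comparison. It ran from 11.38 to 11.54 (median 11.45) in wild type on HSP990 and from 11.84 to 12.18 (median 11.93) in R6/2 on HSP990. A wide gap separated the groups, with a difference of 0.52 ± 0.06, or 1.44-fold (n = 8 and 10, limma adjusted p = 1.16e-07). Its second bright probe set read 0.13 ± 0.10, and not all Sdha probe sets went the same way. Both size and direction thus depend on the probe set, although the call was kept with the mean of the probe sets. Ndufaf1 ran from 8.37 to 8.66 (median 8.59) in wild type and from 8.79 to 9.27 (median 9.05) in R6/2, again without overlap, and differed by 0.49 ± 0.06 (limma adjusted p = 2.98e-07). Ndufaf6 and Ndufaf3 were higher again, by 0.42 ± 0.07 and 0.16 ± 0.06, and Ndufaf4 by 0.21 ± 0.06. The Ndufaf3 call was lost without the arrays of strongest 3' bias and in 8 of the 32 fits that left out 1 array.

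In complex I the calls included the matrix arm. Ndufv1, the flavin subunit that oxidises NADH, differed by 0.36 ± 0.07 (limma adjusted p = 6.53e-05), Ndufv2 by 0.21 ± 0.08 and Ndufv3, an accessory subunit beside them, by 0.28 ± 0.08. The iron-sulfur subunits Ndufs7 and Ndufs8 differed by 0.24 ± 0.09 and 0.17 ± 0.05. With 3' bias as a covariate Ndufs7 fell to 0.10 (limma adjusted p = 0.36). The Ndufs7 call was also lost with the replicate block, without the arrays of strongest 3' bias and in 8 of the 32 fits that left out 1 array. The Ndufv3 call was lost with the covariate, and the Ndufv2 call without those arrays and in 10 of the 32 fits; Ndufv1 and Ndufs8 were called under every setting. In the membrane arm, Ndufb6 ran from 10.67 to 10.90 (median 10.81) in wild type and from 10.97 to 11.62 (median 11.16) in R6/2. All R6/2 arrays were above the highest wild-type array, with a difference of 0.39 ± 0.07 (limma adjusted p = 2.94e-05). Ndufb8 ran from 11.54 to 11.69 (median 11.60) and from 11.83 to 12.02 (median 11.91) in the same order, also apart, with a difference of 0.32 ± 0.05. Ndufb11 and Ndufc2 differed by 0.35 ± 0.06 and 0.34 ± 0.05, and Ndufb1 by 0.35 ± 0.07. Ndufa8 and Ndufa9 differed by 0.28 ± 0.05 and 0.24 ± 0.06, and Ndufa2, Ndufa3, Ndufa10, Ndufa12, Ndufa13, Ndufb9 and Ndufc1 by 0.12 to 0.29. The probe sets of Ndufa3, Ndufa10, Ndufb8 and Ndufb9 did not all go the same way. With the mean of its probe sets Ndufa10 was at 0.01 and Ndufb9 at 0.03, and their calls were lost under 5 and 6 of the 11 settings. The Ndufa12 and Ndufa2 calls were lost with 3' bias as a covariate. The 17 subunits not called ran from -0.07 for Ndufs4 to 0.24 for Ndufb7.

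All 9 complex III genes had differences above 0. Cyc1 ran from 10.57 to 10.82 (median 10.74) in wild type and from 10.88 to 11.23 (median 11.09) in R6/2, with no overlap and a difference of 0.34 ± 0.05 (limma adjusted p = 4.21e-06). Uqcrh, Uqcrc2 and the Rieske iron-sulfur protein Uqcrfs1 differed by 0.28 ± 0.05, 0.26 ± 0.04 and 0.28 ± 0.10, and the small subunits Uqcr10 and Uqcrb by 0.21 ± 0.07 and 0.17 ± 0.06. The Uqcrb call was lost under 6 of the 11 settings and the Uqcr10 call under 3, both 3' bias settings among them, and the Uqcrfs1 call without the arrays of strongest 3' bias.

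In complex IV, Cox6b1, a subunit of the intermembrane space, ran from 12.51 to 12.82 (median 12.67) in wild type and from 12.94 to 13.20 (median 13.04) in R6/2. The groups were apart, and the difference was 0.40 ± 0.06, or 1.32-fold (limma adjusted p = 1.14e-06). Cox7c differed by 0.53 ± 0.10, Cox7a2l by 0.27 ± 0.07, Cox7a2 by 0.19 ± 0.06, Cox5a by 0.16 ± 0.06 and Cox6a1 by 0.15 ± 0.04. The Cox5a call was lost under 4 of the 11 settings, both 3' bias settings among them, and the Cox7a2 call with the covariate. The muscle isoform Cox7a1, at 4.57 to 5.59 in wild type and 5.12 to 5.91 in R6/2, differed by 0.57 ± 0.14, at levels near or under the array median. Cox6a2 was lower, by -0.35 ± 0.09 (limma adjusted p = 0.00362), with ranges of 7.11 to 7.71 in wild type and 6.78 to 7.55 in R6/2 that overlapped, its dimmer probe set read -0.22 ± 0.16, and the call was lost with the mean of the probe sets.

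The comparisons on vehicle and on HSP990 share no arrays, so their differences come from separate samples. Their calls are not independent, because the fit gave each gene the same spread, taken from all groups, in both comparisons. Of the genes higher in R6/2, 12 were called in both: Cyc1, Ndufa8, Ndufa9, Ndufaf1, Ndufaf3, Ndufaf6, Ndufb6, Ndufb11, Ndufc2, Sdha, Uqcrc2 and Uqcrh. They are 75% of the 16 called on vehicle and 32.4% of the 37 called on HSP990. This overlap was not counted over all genes. With only the vehicle arrays in the fit, the vehicle calls of Cyc1, Ndufa8, Ndufa9, Ndufaf3, Ndufb11, Ndufc2 and Uqcrc2 were lost. Cox6a2 was lower in both. Another 25 were called higher on HSP990 and not on vehicle, and 4 on vehicle and not on HSP990 (Ndufaf2, Ndufaf7, Ndufb3 and Ndufab1). For Ndufab1 this depends on the probe set. One that it shares with Ndufab1-ps read 0.21 ± 0.08 on vehicle (limma adjusted p = 0.0535). On HSP990 that probe set read 0.34 ± 0.07 (limma adjusted p = 0.000219). In both comparisons 47 of the 74 genes were above 0, a count not made over all genes. Of all 18193 genes, 8891 were above 0 on vehicle and 10623 on HSP990.

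**Figure D2:**
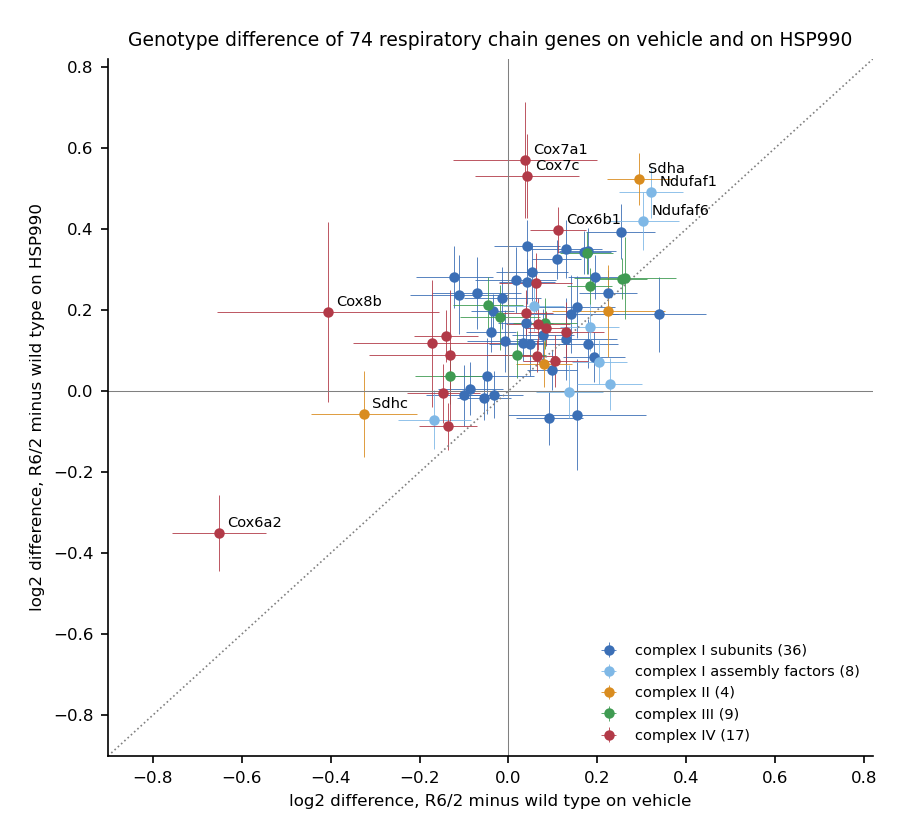
Log2 difference of R6/2 minus wild type on vehicle (x axis) and on HSP990 (y axis) for each of the 74 genes, coloured by complex, with bars of 1 SE and a dotted line of equality. Sdha, Ndufaf1 and Ndufaf6 lie at the upper right and Cox6a2 at the lower left, while Cox7a1, Cox7c and Cox6b1 are high on HSP990 alone. Points show the brightest probe set of each gene, and a dimmer Cox7c probe set, given below, read higher in R6/2 on vehicle too.

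Other gene groups moved beside these differences, and their part in them was not tested. Of 18 measured markers of medium spiny neurons, 15 were lower in R6/2 in each comparison, with median differences of -1.24 on vehicle and -1.41 on HSP990. Their mean level ran from 9.36 to 10.73 in R6/2 on vehicle and from 9.62 to 10.49 in R6/2 on HSP990. Adcy5, an adenylyl cyclase, and Drd1, a dopamine receptor, fell by 1.67 and 1.30 on vehicle. In bulk tissue, fewer cells of a type and less RNA per cell cannot be told apart. Markers of interneurons were lower for 6 of 12 on vehicle and 7 of 12 on HSP990, and those of microglia for 3 and 5 of 13. Astrocyte markers were lower for 2 of 12 on vehicle and 7 of 12 on HSP990, with S100b higher there. Myelin markers were lower for 2 and 7 of 11, the mean level running from 9.91 to 10.59 in R6/2 on HSP990 and from 10.29 to 11.14 in wild type on HSP990. None of the 10 choroid plexus and ependyma markers was called in either comparison, with medians of -0.91 and -0.01. Of the other marker lists, Nrgn of cortical neurons was lower in both, Alas2 of red blood cells was lower in both and Hbb-b2 on HSP990, and on HSP990 Olig2 was lower and Bmp4 higher among precursors of oligodendrocytes and Pecam1 and Abcb1a were lower among vessel genes. With 3' bias as a covariate 31 members were called between the genotypes on HSP990, and leaving out the 2 arrays in which it was strongest gave 29.

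HSP990 in wild type asks what the inhibitor does in mice without the transgene. None of the 74 genes rose and 7 fell, while 2.24% of all genes were called higher and 3.57% lower (5.8% in either direction). The 7 were Ndufv3, Ndufa13, Ndufb8 and Ndufc2 of complex I, the assembly factor Ndufaf4, and Cox6b1 and Cox7a2 of complex IV. The median difference of the 74 genes was -0.12, beside -0.03 for all genes and -0.00 for the bright ones, and 63 of the 74 were below 0. Of all 18193 genes 10800 were below 0, and of the 1676 bright ones 841. Without adjustment, 28 members were lower and none higher at a p under 0.05, against 12.2% lower and 6.27% higher of all genes. The called falls were small, from 1.13-fold for Ndufc2 to 1.28-fold for Ndufv3.

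Ndufv3 ran from 11.44 to 11.79 (median 11.73) on vehicle and from 11.02 to 11.52 (median 11.35) on HSP990. All 10 treated arrays lay below the vehicle mean, with overlap at the edge. The difference was -0.36 ± 0.08, or 1.28-fold (n = 10 and 7, limma adjusted p = 0.00372). Ndufa13, also known as GRIM-19 and an accessory subunit at the foot of the membrane arm, ran from 12.28 to 12.51 (median 12.47) on vehicle and from 12.07 to 12.32 (median 12.21) on HSP990, and fell by 0.23 ± 0.05 (limma adjusted p = 0.00132). Treated arrays were low, with a narrow overlap. Ndufb8 ran from 11.70 to 11.85 (median 11.83) and from 11.54 to 11.69 (median 11.60) in the same order. It was the only member whose treated and vehicle arrays did not overlap, and it fell by 0.20 ± 0.05 (limma adjusted p = 0.0138). A second Ndufb8 probe set, near the bottom of the scale with a mean of 3.55, read 0.01 ± 0.07. Ndufc2, at 12.04 to 12.36 and 11.98 to 12.13, fell by 0.18 ± 0.05 (limma adjusted p = 0.044). The Ndufc2 call was lost with the mean of the probe sets, where it was at -0.10 (limma adjusted p = 0.403), with the replicate block, under both 3' bias settings and in 15 of the 32 fits that left out 1 array.

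Ndufaf4 ran from 9.18 to 9.49 (median 9.40) on vehicle and from 8.98 to 9.27 (median 9.20) on HSP990, and fell by 0.23 ± 0.06 (limma adjusted p = 0.0223). Cox6b1 ran from 12.70 to 13.01 (median 12.96) on vehicle and, as given above, from 12.51 to 12.82 on HSP990. Its treated arrays were low with some overlap, and it fell by 0.24 ± 0.06 (limma adjusted p = 0.0077). Cox7a2, the widespread isoform of subunit 7a, ran from 12.65 to 12.92 (median 12.86) and from 12.44 to 12.68 (median 12.61), and fell by 0.21 ± 0.06 (limma adjusted p = 0.0252). No complex II or III gene was called, although all 9 complex III genes were below 0. Their differences ran from -0.21 for Uqcr11 to -0.07 for Uqcrfs1. In complex II, Sdha was at -0.17 ± 0.07 (limma adjusted p = 0.127) and the other 3 lay between -0.06 and 0.01.

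The count moved with the vehicle arrays: 4 members were called without wild-type vehicle replicate 2 or 3, and 12 without replicate 4. Cox6b1, Ndufa13 and Ndufv3 were called under every setting tried. The Ndufb8 and Ndufaf4 calls were lost with the mean of the probe sets, the Ndufb8 and Cox7a2 calls with the replicate block, and the Cox7a2 call also without the arrays of strongest 3' bias. Median 3' bias differed between these groups (1.43 on vehicle and 1.04 on HSP990), and with it as a covariate 7 members were called and the median of the 74 was -0.11. All 11 myelin markers were above 0 with HSP990 in wild type (median 0.26, 3 at an unadjusted p under 0.05), their mean level running from 10.28 to 10.91 on vehicle and from 10.29 to 11.14 on HSP990. Of the 10 choroid plexus and ependyma markers 9 were below 0 (median -0.47), with mean levels of 5.56 to 8.12 and 5.55 to 8.74. No marker of either list was called, both shifts were larger than that of the members, and their part in it was not tested. These 7 genes also had higher values in R6/2 than in wild type on HSP990, by 0.19 to 0.40, but both comparisons use the wild-type HSP990 arrays, so the values are not independent.

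**Figure D3:**
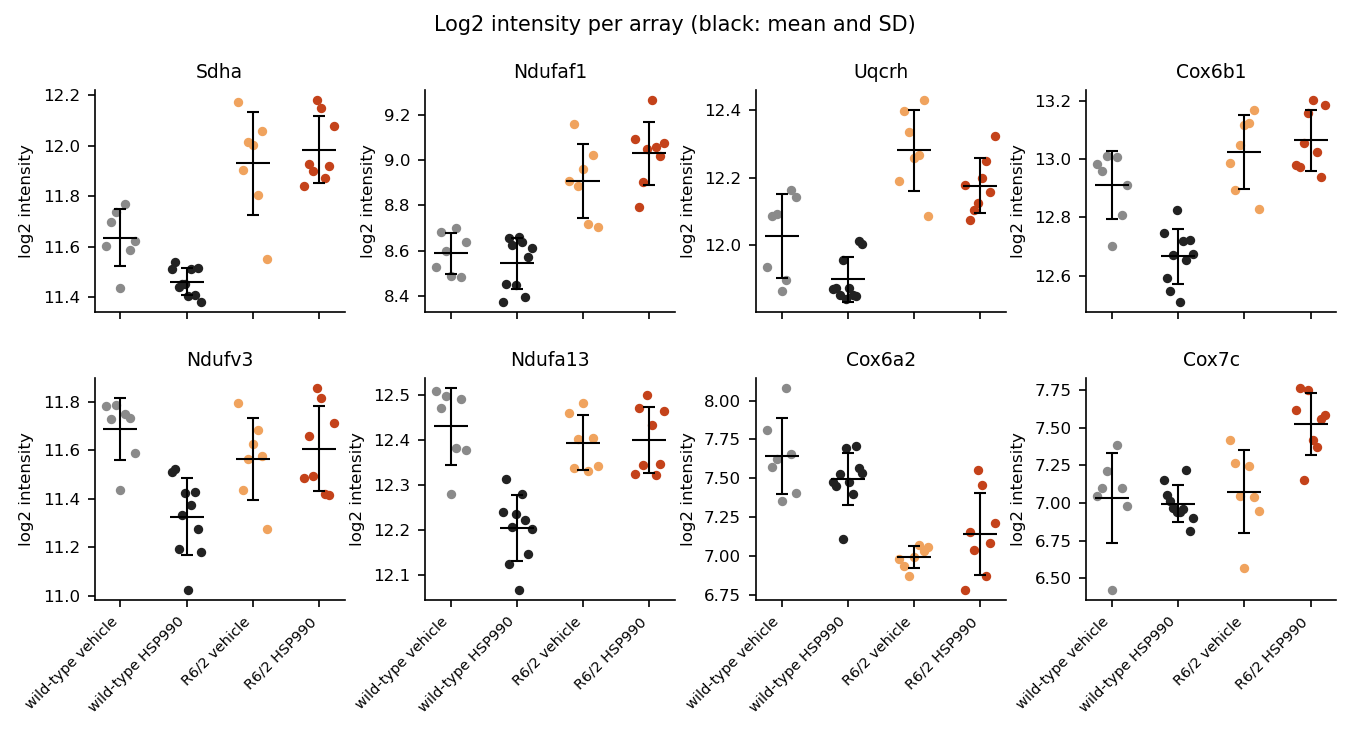
Log2 intensity of 8 genes in each of the 32 arrays, by group, with mean and SD in black. Each panel has its own scale. Sdha and Ndufaf1 are high in both R6/2 groups, Ndufv3 and Ndufa13 are low in wild type on HSP990, Cox6a2 is low in R6/2 on vehicle (6.87 to 7.07) and Cox7c is high in R6/2 on HSP990 (7.15 to 7.76).

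HSP990 in R6/2 asks the same in mice with the transgene. Of the 74 genes 1 rose, Cox7c, and none fell, while 2.18% of all genes were called higher and 0.918% lower (3.09% in either direction). Without adjustment 4 members were higher and 4 lower at a p under 0.05, against 10.5% and 5.37% of all genes. The median difference was 0.00, beside 0.02 for all genes, with 37 members above 0 and 37 below. In the same arrays 9 of the 10 choroid plexus and ependyma markers were above 0 (median 0.41, none called) and 4 of the 11 myelin markers (median -0.04), and their part was not tested. Cox7c, a small subunit of complex IV, ran from 6.57 to 7.42 (median 7.05) on vehicle and from 7.15 to 7.76 (median 7.57) on HSP990. All 8 treated arrays were above the vehicle mean, with overlapping ranges. The difference was 0.45 ± 0.11, or 1.37-fold (n = 8 and 7, limma adjusted p = 0.0217), and in wild type it was -0.04 ± 0.11. A dimmer Cox7c probe set read 0.14 ± 0.11 with HSP990 in R6/2, and 0.46 ± 0.11 between the genotypes on vehicle where the brighter one read 0.04 ± 0.12. The call was lost without R6/2 vehicle replicate 4 or 7. It was also lost with the mean of the probe sets, with only the R6/2 arrays in the fit, and with 3' bias as a covariate.

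The 7 genes that fell in wild type had differences from -0.08 (Ndufaf4) to 0.04 (Ndufv3 and Cox6b1) in R6/2, none of them called. Members with the smallest p in their classes were Ndufb3 (-0.18 ± 0.07, limma adjusted p = 0.153) and Ndufb4 (-0.40 ± 0.15, 0.155) among complex I subunits, Ndufaf7 (-0.18 ± 0.07, 0.163) and Ndufaf5 (-0.16 ± 0.07, 0.249) among assembly factors, and Sdhc (0.28 ± 0.12, 0.215) in complex II. In complex III, Uqcrh was at -0.10 ± 0.06 and Uqcrq at -0.08 ± 0.06, and in complex IV Cox6b2 was at 0.35 ± 0.17.

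**Figure D4:**
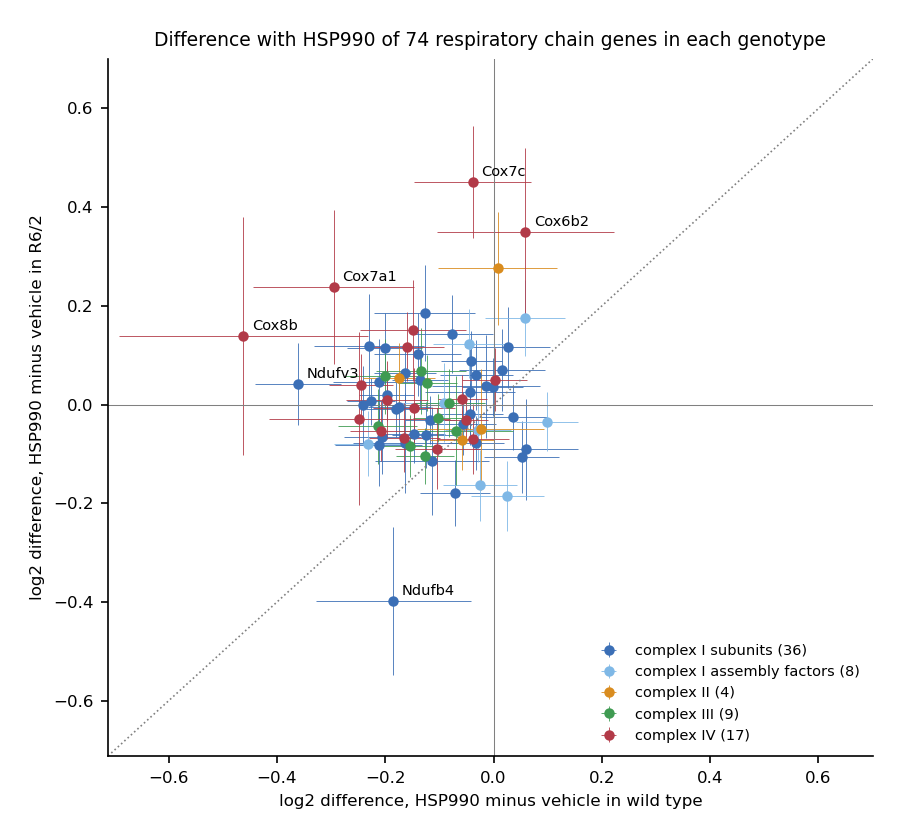
Log2 difference of HSP990 minus vehicle in wild type (x axis) and in R6/2 (y axis) for each of the 74 genes, coloured by complex, with bars of 1 SE and a dotted line of equality. Most points lie left of 0 (63 of 74) and spread evenly about 0 on the y axis (37 above and 37 below).

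The interaction, the R6/2 response to HSP990 minus the wild-type response, tests whether the drug's effect differed between the genotypes. No member was called by limma, while 0.17% of all genes were called higher and 0.077% lower (0.247% in either direction). Without adjustment 20 members were higher and 1 lower at a p under 0.05, against 9.73% and 3.16% of all genes. For 60 members the difference with HSP990 was larger in R6/2 than in wild type, as it was for 11292 of all 18193 genes. Of the 1676 genes with a mean over 10 it was larger for 799. The median interaction was 0.11, beside 0.05 for all genes and -0.01 for the bright ones. The smallest p-values belonged to Ndufa13 (0.23 ± 0.07, limma adjusted p = 0.108), Ndufv3 (0.40 ± 0.12, adjusted p = 0.112), Cox6b1 (0.29 ± 0.08, adjusted p = 0.128) and Ndufv1 (0.32 ± 0.10, adjusted p = 0.159). So a fall in wild type and no call in R6/2 was not shown to be a difference between the genotypes for any 1 gene. Without wild-type vehicle replicate 4, Cox7c was called (0.59 ± 0.14, limma adjusted p = 0.0466).

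**Figure D5:**
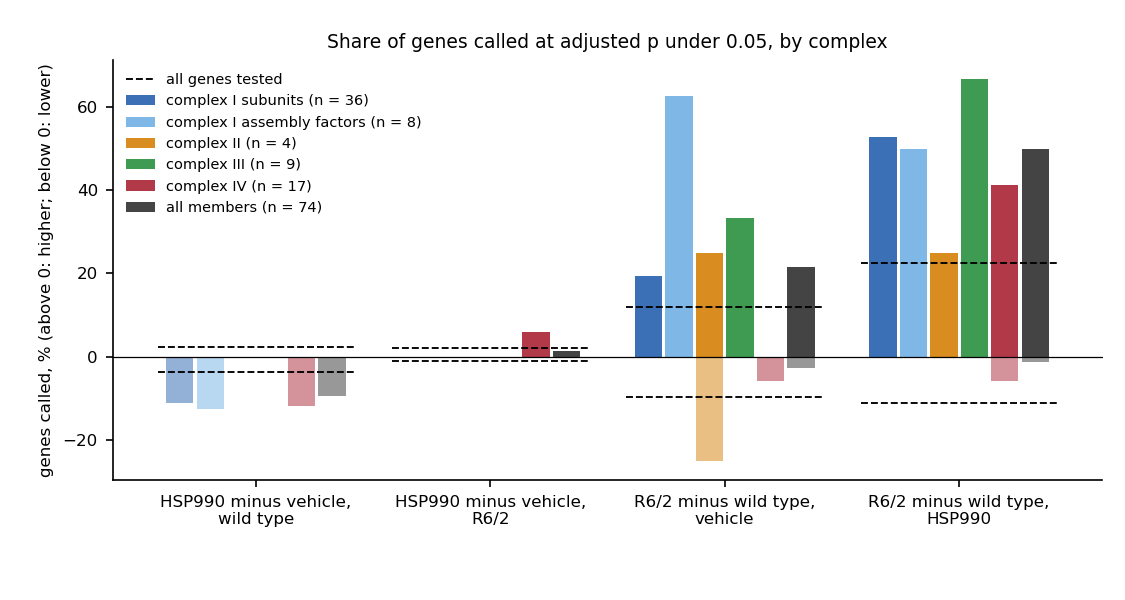
Share of genes called at an adjusted p under 0.05 in each comparison, as percent, upward for higher and downward for lower, by complex and for all 74 members, with dashed lines for all genes tested. For R6/2 against wild type on HSP990 the members stand at 50% higher against 22.6% of all genes, and for HSP990 in wild type at 9.46% lower against 3.57%.

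Isoforms that are known from muscle, testis, lung or low oxygen were mostly dim here. Cox4i2, the oxygen-responsive isoform of subunit 4, and Ndufa4l2, induced by low oxygen, were called in no comparison. Their largest differences were -0.15 ± 0.08 and 0.12 ± 0.08. The testis isoforms Cox6b2, Cox7b2 and Cox8c and the muscle isoform Cox8b were not called either, Cox8b with an SE of up to 0.25. Cox4i1, the widespread counterpart of Cox4i2, was also not called, at -0.05 ± 0.04 with HSP990 in wild type and 0.09 ± 0.04 between the genotypes on HSP990. The brightest complex I member, Ndufa1, lay within -0.04 and -0.01 in all 4 comparisons of groups, and Cox6c within -0.07 and 0.11. Ndufb4's own probe set was dim (mean 4.87), while 2 probe sets it shares with Ndufb4b and Ndufb4c read 10.95 and 11.03. Between the genotypes on HSP990 these differed by -0.04 ± 0.07 and -0.07 ± 0.09, and neither was called. In all, 43 of the 74 genes were called in at least 1 of the 4 comparisons and 31 in none. The matching count over all genes was not made, and 33.6% of all genes were called between the genotypes on HSP990.

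For 8 symbols of the rule, only probe sets assigned to several genes were at hand, and these are not among the 74. The brighter one of Ndufa11 and Ndufa11b, accessory subunits of the membrane arm, was higher in R6/2 on HSP990 by 0.26 ± 0.06 (limma adjusted p = 0.00116). That of Ndufs6 and Ndufs6b read 0.16 ± 0.06 (limma adjusted p = 0.0595). A dim probe set that Ndufa13 shares with Yjefn3 went the other way from Ndufa13 itself, at -0.35 ± 0.09.

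Other genes of oxidative metabolism, from lists taken as wholes, had counts beside which the members can be read. Of 20 ATP synthase genes, 3 were higher in R6/2 on vehicle (Atp5g3, Atp5g1 and Atp5c1) and 9 on HSP990, Atp5g1, a proton-channel subunit, by 0.30 ± 0.09 and 0.47 ± 0.08. Of 36 assembly factors outside the symbol rule, 8 were higher and 1 lower on vehicle, and 15 and 1 on HSP990. Sco1 and Sco2, which bring copper to complex IV, rose by 0.42 ± 0.12 and 0.41 ± 0.09 on vehicle, and Ttc19, a complex III factor, fell by 0.26 ± 0.07. Of 13 electron carrier genes, 4 were higher on vehicle and 8 on HSP990, among them the ubiquinone synthesis gene Coq3 (0.48 ± 0.12 and 0.48 ± 0.10). Of 20 genes of the citric acid cycle and pyruvate dehydrogenase, 7 were higher and 2 lower on vehicle and 9 and 1 on HSP990. Pdk1, which inhibits pyruvate dehydrogenase, was higher by 0.63 ± 0.11 and 0.85 ± 0.10, and Ogdh was lower in both.

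Of 17 regulators of mitochondrial biogenesis, 3 were higher and 1 lower on vehicle. Tfam, which packages and transcribes mitochondrial DNA, rose by 0.35 ± 0.06, the deacetylase Sirt1 by 0.61 ± 0.12 and Gabpa by 0.35 ± 0.12, and the coactivator Ppargc1b fell by 0.53 ± 0.09. On HSP990 6 were higher and 2 lower: Tfam, Sirt1, Gabpa, Pprc1, Polrmt and Sirt3 against Ppargc1b and Esrra. Of 19 import and channel genes, 2 rose and 2 fell on vehicle and 7 and 2 on HSP990, with Vdac3 up and Tomm70a down in both. Of 76 mitochondrial ribosomal protein genes, 17 were higher and none lower on vehicle, and 32 and 1 (Mrps33) on HSP990. Mrps22 rose by 0.54 ± 0.06 on vehicle.

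With HSP990 in wild type, calls were few in these lists. No ATP synthase or import gene was called. The genes of smallest p were Atp5h (-0.13 ± 0.04) and Atp5j2 (-0.17 ± 0.06) in the former list and Vdac3 (-0.14 ± 0.05) and Timm10 (-0.13 ± 0.05) in the latter. The assembly factors Dmac1, Bcs1l and Uqcc2 fell by 0.31 ± 0.05, 0.34 ± 0.09 and 0.24 ± 0.07. Dhodh, which feeds ubiquinone, fell by 0.31 ± 0.06, and Dlat, Fh1 and Mdh2 of the citric acid cycle list fell by 0.25, 0.20 and 0.14. The coactivator Pprc1 and the mitochondrial RNA polymerase Polrmt fell by 0.61 ± 0.08 and 0.46 ± 0.08. Among ribosomal protein genes Mrps6 and Mrpl16 rose and Mrpl41 and Mrps30 fell. In R6/2, Sco2 rose by 0.33 ± 0.09, Gabpb1 by 0.56 ± 0.15 and Mrps6 by 0.73 ± 0.08. There, Mrpl22, Mrps2 and Mrps35 also rose and Mrpl24 fell. Of the cell type markers, Sox9, Olig2 and Flt1 rose and Slc2a1 fell in wild type, and in R6/2 Drd1, Gpr6, Glul and Cldn5 fell and Flt1 rose. Beside these calls stand the shifts of whole lists given above for myelin and for choroid plexus and ependyma.

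Promoter motifs were counted in called and other members, as a description. Of the 31 members with a window that were higher in R6/2 on HSP990, 4 had the NRF1 motif, 6 the GABPA motif, 5 the YY1 motif and 0 the ESRRA motif. Of the 28 that were not called, 7, 7, 2 and 4 had them, in that order. Among the genes called higher in both genotype comparisons, Sdha and Ndufa8 had the NRF1 motif. Ndufaf1, Ndufb6 and Uqcrh had the GABPA motif, and Ndufa9 had the YY1 motif. Ndufaf3, Ndufb11 and Ndufc2 had none of these motifs, and Cyc1, Ndufaf6 and Uqcrc2 had no window.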

How the data were processed

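Total RNA of mouse striatum was measured on an Affymetrix 3' expression array with biotin-labelled cRNA, per the labels' protocols. The deposited values are log2 intensities (2.15 to 14.7) that the authors had normalized, by a method not given in the sources used here, and the series' design text names RACE for quality control only. Of 45101 probe sets 64 were controls, 34945 had 1 gene symbol, 932 several and 9160 none. The brightest single-symbol probe set stood for each of 18193 genes, with no filter on low values.

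Means of the 4 groups were fitted to all genes with limma 3.58.1 (R 4.3.3), with 5 contrasts, two-sided tests, Benjamini-Hochberg adjustment over all genes and calls at an adjusted p under 0.05. All groups share 1 spread per gene. Precision is limited by how many arrays each group has. Named are all called members, up to 2 members with the smallest p per class and comparison, isoforms of restricted tissues, the brightest and dimmest member of each class, and of other lists called genes or the 2 with the smallest p; not every gene so named is described. The members and lists were chosen with earlier results of these data known. The fit was tested on simulated data. Alternatives were quantile normalization, median centring, dropping dim probe sets, averaging a gene's probe sets, a trended robust variance, a fit of the compared groups alone, weights for arrays, a block for replicate number, 3' bias as a covariate or its 2 strongest arrays left out, current symbols, and each array left out. Current symbols also picked 74 members from the unchanged fit, so no gene's call could change under that setting. Promoter windows are from RefSeq (GRCm38.p6).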

Additional observations from a re-analysis of the deposited data

Results flagged for a closer look

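Among 88 sets of values (the 21 members shown with group values and the medians over all members, in each of the 4 groups), 8 had a lowest array set well apart from the rest of its group, and chance alone sets about 1 in 20 apart. In wild type on vehicle, replicate 4 had a Cox7c value of 6.42, the others being 6.98 or more, and a median deviation of all members of -0.11, the others being -0.02 or more. In wild type on HSP990, replicate 6 had a Cox7a2 value of 12.44 (others from 12.60) and a median deviation of all members of -0.20 (others from -0.13). In the same group replicate 2 had a Cyc1 value of 10.57 (others from 10.70) and replicate 4 a Cox6a2 value of 7.11 (others from 7.40). In R6/2 on vehicle, replicate 7 had an Ndufa8 value of 10.80 (others from 10.99). In R6/2 on HSP990, replicate 2 had an Ndufaf3 value of 9.20 (others from 9.40).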

How the results depend on the processing

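No call reversed under any alternative. Medians over the members moved by less than 1 SD between arrays: with HSP990 in wild type from -0.14 to -0.10 over the alternatives, with HSP990 in R6/2 from -0.04 to 0.01, between the genotypes on vehicle from 0.06 to 0.08, on HSP990 from 0.14 to 0.18, and for the interaction from 0.09 to 0.13. Counts moved more. With HSP990 in wild type, 7 calls became 12 after quantile normalization, 12 with only the groups compared and 19 with array weights, and 4 to 12 with 1 array left out. With HSP990 in R6/2, 1 call became 0 with the mean of the probe sets, 0 with only the groups compared, 0 with 3' bias as a covariate and 2 with array weights (with Ndufb4 lower), and 0 to 2 with 1 array left out. On vehicle, 18 calls became 6 with only the groups compared and 11 to 20 with 1 array left out. On HSP990, 38 calls ran from 29 to 40 over the alternatives and from 31 to 39 with 1 array left out. The interaction had 0 calls under each alternative and 0 to 1 with 1 array left out. The causes were not tested. Under every setting, 3 of 7, 0 of 1, 5 of 18 and 24 of 38 calls were kept, in that order. With replicate number as a block 5, 1, 16, 33 and 0 members were called. The numbers do not pair the samples: residuals of same-numbered arrays of different groups correlated at a median of 0.04 (43 pairs, -0.34 to 0.47), and those of other numbers at -0.03. Members with dim probe sets are limited by signal near background, and several-symbol probe sets by shared signal.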
